A study of Mus musculus with 8 samples.

Results

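The genes described here are those of MHC class II antigen presentation: H2-Aa, H2-Ab1, H2-Eb1, H2-DMa, H2-DMb1, Cd74 and Ciita. They were picked by symbol as a pathway, with earlier results of these data known, and are 7 of the 55801 genes in the expression table, 24248 of them above 0 somewhere in the 8 samples. Each symbol stood on 1 row, and all 7 passed the filter used for testing, a mean of at least 1 TPM over the samples. TPM is a transcript level per gene length, scaled so that every sample has the same total.

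RNA was sequenced from peritoneal macrophages of male C57BL/6 mice aged 6 to 8 weeks. Aged thioglycollate broth had been injected into the peritoneal cavity 72 h before the cells were flushed out, in every group. The 8 samples form 4 groups of 2. NC received vehicle, LPS received lipopolysaccharide of the bacterial cell wall at 100 ng/ml for 4 h, C498 received the compound C498 at 15 µM, and C498+LPS received C498 for 0.5 h before the same LPS challenge. The comparisons asked whether LPS changed these transcripts, whether C498 alone did, and whether C498 changed their levels under LPS. The labels do not say whether the samples of a group came from separate mice or cultures, so p-values measure only the spread between these samples.

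A class II molecule is a pair of an alpha and a beta chain that carries peptides from swallowed material to the surface of macrophages, dendritic cells and B cells, where CD4+ T cells read them. H2-Aa and H2-Ab1 encode the alpha and beta chain of the I-A molecule, and H2-Eb1 encodes the beta chain of I-E. Cd74 encodes the invariant chain, which fills the groove of new class II molecules and steers them to endosomes. H2-DMa and H2-DMb1 encode the chains of H2-M, the editor that releases the last piece of invariant chain and lets peptides in. Ciita encodes the coactivator that is recruited to the promoters of the other genes and is induced in macrophages by interferon gamma.

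On mouse build GRCm38 with the GENCODE M21 annotation, 5 of the genes lie in the MHC on chromosome 17, in the order H2-DMa (chr17:34119541-34139101, plus strand), H2-DMb1 (chr17:34153072-34160230, plus), H2-Ab1 (chr17:34257689-34269419, plus), H2-Aa (chr17:34282744-34287823, minus) and H2-Eb1 (chr17:34305867-34316674, plus). Ciita lies at chr16:10480059-10528418 on the plus strand. All are protein coding. The build behind the table is not given in the sources used here, and the identifiers of 97.5% of the tested genes were found in this annotation.

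The promoters of class II genes are known for an X box, bound by the RFX complex, a few turns of the helix upstream of a Y box, bound by NF-Y, and Ciita acts through the proteins on both. The stretches below are shown because they carry that pair, in RefSeq promoter sequence on GRCm38.p6. Capitals mark a match to CTNGNAAC, searched as the X1 part of the X box, and to TGATTGG, searched as the Y box.
H2-Aa: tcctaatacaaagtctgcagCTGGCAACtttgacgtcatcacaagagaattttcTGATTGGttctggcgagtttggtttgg
H2-Eb1: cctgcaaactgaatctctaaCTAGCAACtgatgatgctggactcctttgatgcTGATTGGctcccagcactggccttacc
H2-DMb1 (X1 box): gaggtttacCTAGTAACtgatgatgct
H2-DMb1 (Y box): ttcactcagTGATTGGtctgacctgcc
The H2-Aa stretch is chr17:34287847-34287927 on the minus strand and the H2-Eb1 stretch chr17:34305753-34305832 on the plus strand. For H2-DMb1 the window overlaps an annotated exon, so only the bases around each box are given, chr17:34153085-34153111 and chr17:34153119-34153145 on the plus strand. Between the boxes lie 26 bases in H2-Aa, 25 in H2-Eb1 and 26 in H2-DMb1. Over the 250 bases upstream of 32851 RefSeq starts, searched on both strands, 10.9% held the X1 letters and 7.23% the Y letters. Only 14 windows (0.0426%) held an X1 match 10 to 30 bases before a Y match on the strand of the gene, and 4 of those 14 belonged to class II chain genes, the 3 shown and H2-Ob. The table held a window for 4 of the 7 genes, the fourth being H2-DMa, whose 2 listed windows held neither set of letters. It had no entry for H2-Ab1, Cd74 or Ciita. A match of letters is a description and not a bound site.

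The samples looked like macrophages throughout. The 9 genes of a macrophage list (among them Lyz2, Cd68, Csf1r and Adgre1) summed to 20161 to 20671 TPM in NC, 17941 to 18475 in LPS, 15988 to 16130 in C498 and 12431 to 14219 in C498+LPS. Read numbers cannot be had from TPM, so depth is unknown and the precision of a level is seen only in its replicate. Replicates correlated over the tested genes with Pearson's r from 0.962 to 0.981. In bulk RNA, fewer cells of a type and less RNA per cell cannot be told apart. The median gene had a log2 change of -0.17 with LPS alone (LPS vs NC) and of 0.01 with C498 alone (C498 vs NC). Centring every sample on its median gene moved these medians to -0.000539 and -0.11, so values with centring are given beside the results of the 7 genes that passed the test, and counts with centring beside those of the pathway lists.

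Cd74 was the most abundant of the 7 transcripts, with group means between 648 and 764 TPM, and ranked 247th of all listed genes by mean level. H2-Ab1 (group means 192 to 257 TPM), H2-Aa (154 to 211 TPM) and H2-Eb1 (109 to 154 TPM) followed. The H2-M chains were lower, H2-DMa at 29.3 to 59.5 TPM and H2-DMb1 at 27.2 to 47.6 TPM. Ciita stood far below its target genes at 0.66 to 2.24 TPM, rank 11742. These levels are per length and can be set side by side within a sample.

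**Figure D1:**
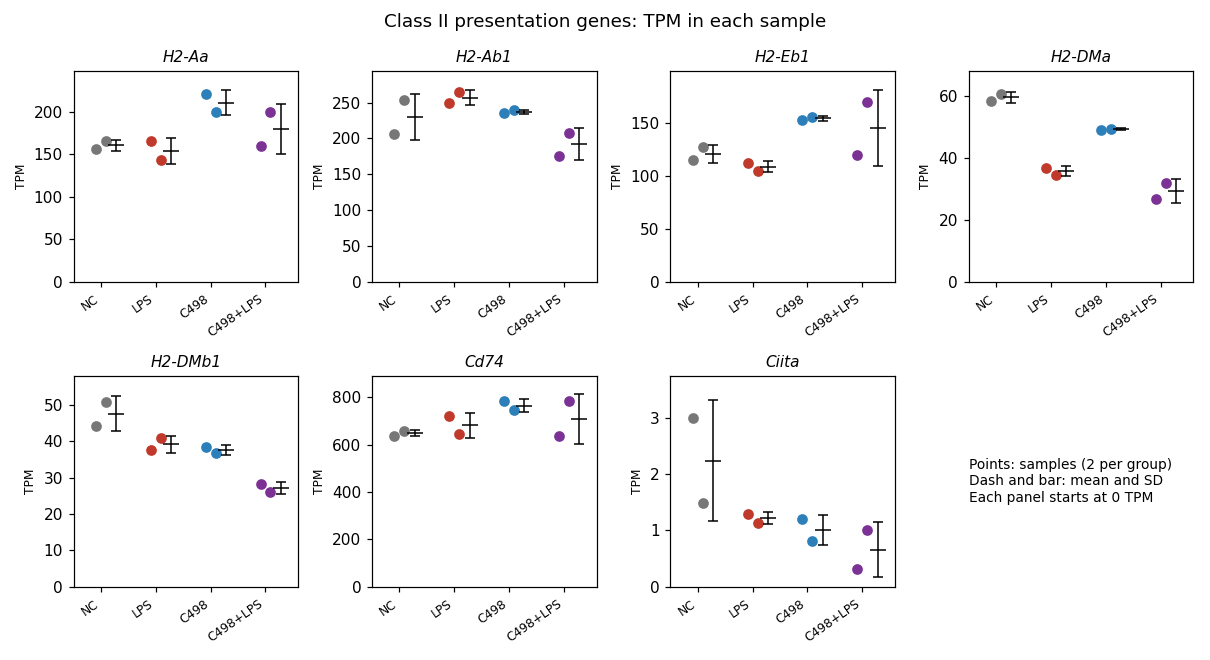
TPM of the 7 class II presentation genes in each of the 8 samples, 1 panel per gene with a y axis from 0; points are samples, the dash and bar the mean and SD of the 2 samples of a group. No 2 groups overlap for H2-DMa, from 58.3 and 60.8 TPM in NC down to 26.6 and 32.0 in C498+LPS, and for H2-DMb1 only LPS and C498 overlap.

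Changes were tested with limma, which was fitted to log2(TPM + 1) of all samples together, with the Benjamini-Hochberg adjustment over the 12189 tested genes. A gene passed at an adjusted p of at most 0.05 and was called when its fold change was also at least 2. Fold changes are those of TPM + 1 unless a ratio of mean TPM is named. Adding 1 before the logarithm understates the changes of genes at a low level, which here concerns Ciita, Ifng, Irf4 and Il10 most.

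In LPS vs NC, H2-DMa fell and the other 6 genes did not pass. The count called was 0 of 7, where 12.2% of all tested genes were called, and 1 of 7 passed, where 29.6% of all tested genes did. The limma fit gave 1 gene with an unadjusted p under 0.05, beside 41.2% of all genes. The median log2 change was -0.15 over the 7 genes and -0.17 over all genes.

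In C498 vs NC, 0 of the 7 genes were called against 7% of all tested genes, and 0 passed against 15.5%. In limma, 2 genes had an unadjusted p under 0.05, beside 32% of all genes, H2-Aa with a higher and H2-DMb1 with a lower mean in C498. The median log2 change was 0.05 over the 7 genes and 0.01 over all genes.

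In C498+LPS vs LPS, H2-DMb1 fell. The count called was again 0 of 7, beside 7.57% of all tested genes, and 1 of 7 passed, beside 16.8%, while 0 of 7 passed with centring (19.5% of all genes) and with quantile normalization (19.9%). In limma, 4 genes had an unadjusted p under 0.05, beside 31.2% of all genes, H2-Eb1 with a higher mean and H2-Ab1, H2-DMa and H2-DMb1 with a lower one. The median log2 change was -0.28 over the 7 genes and 0.01 over all genes.

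In C498+LPS vs C498, both chains of H2-M fell. Of the 7 genes 0 were called, where 5.64% of all tested genes were, and 2 passed, where 16.2% did, while with centring 0 of 7 passed beside 13.3% of all genes and with quantile normalization 1 of 7 beside 16.8%. In limma, 3 genes had an unadjusted p under 0.05, beside 31.9% of all genes, H2-Ab1, H2-DMa and H2-DMb1. All 7 had a lower mean with LPS, with a median log2 change of -0.30 against -0.18 over all genes. With centring H2-Eb1 (0.10) and Cd74 (0.10) were higher, and the median was -0.09 over the 7 genes against 0.04 over all genes. Without the first C498+LPS sample the median of the 7 was -0.07. The interaction, which asks whether the response to LPS differed with and without C498, gave 0 of 7 called and 0 passed, against 0.468% and 0.492% of all tested genes, and 1 gene (H2-Ab1) with an unadjusted p under 0.05 in limma, beside 11.1% of all genes.

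The comparison of C498+LPS with NC was added after the others were seen. It called 1 of the 7 genes, H2-DMa, where 18.2% of all tested genes were called, and 2 passed, both chains of H2-M, where 41.7% did. The comparisons share samples, so they are not independent of each other.

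**Figure D2:**
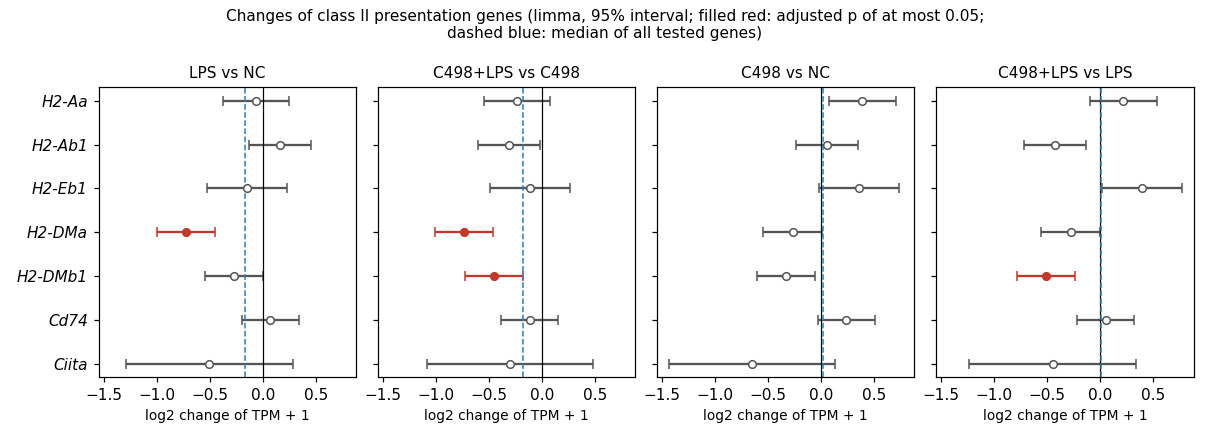
Log2 change of TPM + 1 for each of the 7 genes (rows) in 4 comparisons (panels), with the 95% interval of the limma fit; filled red points have an adjusted p of at most 0.05 and the dashed blue line is the median of all tested genes. The filled points are H2-DMa in LPS vs NC, both H2-M chains in C498+LPS vs C498, and H2-DMb1 in C498+LPS vs LPS.

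H2-DMa, the alpha chain of H2-M, measured 58.3 and 60.8 TPM in NC, 36.8 and 34.5 in LPS, 49.1 and 49.4 in C498, and 26.6 and 32.0 in C498+LPS. No groups overlapped: NC was highest, then C498, then LPS, then C498+LPS. H2-DMa fell 1.65-fold in LPS vs NC (log2 change -0.72 ± 0.12 SE, adjusted p = 0.00425). It fell 1.66-fold in C498+LPS vs C498 (log2 change -0.73 ± 0.12, adjusted p = 0.00835). The interaction, the difference between these changes, was -0.01 with a 95% interval of -0.40 to 0.38. With centring, LPS vs NC gave -0.56 (adjusted p = 0.0382) and C498+LPS vs C498 gave -0.52 (adjusted p = 0.0737). The latter also no longer passed without either of the C498 samples, with adjusted p of 0.0665 and 0.07.

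C498 had lower values of H2-DMa on either side of the LPS challenge, but those differences did not pass. The log2 change was -0.27 in C498 vs NC (95% interval -0.54 to 0.01, adjusted p = 0.166) and -0.28 in C498+LPS vs LPS (-0.56 to -0.00317, adjusted p = 0.156), the latter being -0.15 without the first and -0.41 without the second C498+LPS sample. Against NC, C498+LPS had the lowest level, 2-fold down (95% interval of the log2 change -1.28 to -0.73, adjusted p = 0.000773). That value sits at the fold threshold, and H2-DMa was no longer called with centring (-0.91, adjusted p = 0.0039), with quantile normalization (-0.89, adjusted p = 0.00163), without the first C498+LPS sample (-0.87, adjusted p = 0.00562) and without the second NC sample (-0.97, adjusted p = 0.00388), while it passed in each of those fits.

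Exons of H2-DMa share 360 bases with Brd2, a bromodomain gene on the opposite strand, and the sources used here do not say whether the counting used strand. Brd2 measured 110.5 and 90.5 TPM in NC, 169 and 160.3 in LPS, 318 and 292 in C498, and 291 and 280.1 in C498+LPS. Its order of groups was thus not that of H2-DMa: Brd2 rose in LPS vs NC (log2 change 0.71, adjusted p = 0.00378) and in C498 vs NC (1.60, adjusted p = 0.000309), and did not pass in C498+LPS vs C498 (-0.09, adjusted p = 0.615). How far reads of Brd2 entered the values of H2-DMa was not tested.

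H2-DMb1, the beta chain of H2-M, measured 44.3 and 50.9 TPM in NC, 37.5 and 40.9 in LPS, 38.5 and 36.7 in C498, and 28.4 and 26.1 in C498+LPS. Both NC samples were above all others and both C498+LPS samples below all others, while LPS and C498 overlapped. H2-DMb1 fell 1.42-fold in C498+LPS vs LPS (log2 change -0.51 ± 0.12, adjusted p = 0.0267) and 1.37-fold in C498+LPS vs C498 (-0.45 ± 0.12, adjusted p = 0.0418). Against NC it fell 1.72-fold in C498+LPS (-0.78 ± 0.12, adjusted p = 0.00216). The values of each agent alone did not pass, with -0.27 for LPS (adjusted p = 0.127) and -0.33 for C498 (adjusted p = 0.103), of which the latter passed without the first NC sample (-0.43, adjusted p = 0.0407). With centring the change was -0.59 (adjusted p = 0.0591) in C498+LPS vs LPS and -0.24 (adjusted p = 0.432) in C498+LPS vs C498, so that neither passed, while C498+LPS vs NC gave -0.69 (adjusted p = 0.019).

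The changes of H2-DMb1 against LPS and against C498 passed only narrowly. Neither comparison passed once any sample of LPS, C498 or C498+LPS was left out, with adjusted p from 0.0598 to 0.159 in C498+LPS vs LPS and from 0.0757 to 0.201 in C498+LPS vs C498. H2-DMb1 has a near-identical neighbour, H2-DMb2, between which reads may be split. H2-DMb2 measured 14.8 and 18.6 TPM in NC, 13.1 and 18.3 in LPS, 7.33 and 14.9 in C498, and 13.9 and 8.30 in C498+LPS. Summed with H2-DMb2, the pair had a log2 change of -0.51 in C498+LPS vs LPS (adjusted p = 0.0603) and -0.34 in C498+LPS vs C498 (adjusted p = 0.169). The fall in C498+LPS vs NC passed in the summed fit too (-0.73 in log2, adjusted p = 0.00768).

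H2-Ab1, the beta chain of I-A, measured 207 and 253 TPM in NC, 249.7 and 265 in LPS, 235 and 239 in C498, and 176 and 208 in C498+LPS. The LPS samples were near or above the highest NC sample, and both C498+LPS samples were below every sample of LPS and C498. C498+LPS vs LPS gave a log2 change of -0.43 ± 0.12 (95% interval -0.72 to -0.13), which did not pass (adjusted p = 0.0583). It passed with the replicate number as a block (adjusted p = 0.0206) and when the first or the second NC sample was left out (adjusted p = 0.0271 and 0.0268), and its adjusted p was 0.0914 to 0.248 when a sample of LPS, C498 or C498+LPS was left out. The interaction of C498 and LPS was -0.48 (95% interval -0.89 to -0.06) and did not pass either (adjusted p = 0.391). In LPS vs NC the change was 0.17 (adjusted p = 0.357) and in C498 vs NC 0.05 (adjusted p = 0.806). The value was -0.26 in C498+LPS vs NC (adjusted p = 0.136), with -0.40 without the first NC sample and -0.11 without the second.

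H2-Aa, the alpha chain paired with it, measured 156 and 165 TPM in NC, 165 and 143 in LPS, 222 and 200.5 in C498, and 159.6 and 201 in C498+LPS. Both C498 samples were above both samples of NC and of LPS. C498 vs NC gave a log2 change of 0.39 ± 0.13 (95% interval 0.08 to 0.70), which did not pass (adjusted p = 0.0933). In C498+LPS vs LPS it was 0.22 (adjusted p = 0.323) and in LPS vs NC -0.06 (adjusted p = 0.771).

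H2-Eb1, the beta chain of I-E, measured 115 and 127 TPM in NC, 113 and 105 in LPS, 153 and 156 in C498, and 119.8 and 170.5 in C498+LPS. Both C498 samples were above all NC and LPS samples, and the C498+LPS samples lay on either side of the C498 pair. The log2 change was 0.35 in C498 vs NC (adjusted p = 0.18) and 0.39 in C498+LPS vs LPS (adjusted p = 0.147). Without the first C498+LPS sample the latter was 0.64, and without the second 0.14. In C498+LPS vs NC it was 0.24 (adjusted p = 0.263), with 0.495 and -0.0105 when the same samples were left out. H2-Ea, which would encode the alpha chain of I-E, was listed at 0 in all 8 samples. C57BL/6 mice carry a haplotype known to lack its expression, so no I-E molecule is expected in these cells.

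Cd74, the invariant chain, lies outside the MHC on chromosome 18 (60803848 to 60812652, plus strand). It measured 639 and 657 TPM in NC, 719 and 644 in LPS, 784 and 744 in C498, and 635 and 783 in C498+LPS. Both C498 samples were above every NC and LPS sample, and C498+LPS ran from the lowest of all 8 samples to just below the highest. None of the changes passed, with 0.24 in C498 vs NC (95% interval -0.03 to 0.51, adjusted p = 0.204), 0.07 in LPS vs NC (adjusted p = 0.689) and 0.05 in C498+LPS vs LPS (adjusted p = 0.815). The intervals for Cd74 in LPS vs NC, -0.20 to 0.34, and in C498+LPS vs LPS, -0.22 to 0.32, leave out a 2-fold change.

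Ratios within a sample do not depend on how the samples were scaled. H2-Aa per H2-Ab1 was 0.754 and 0.653 in NC, 0.662 and 0.541 in LPS, 0.942 and 0.837 in C498, and 0.906 and 0.966 in C498+LPS. Both groups with C498 were thus above both groups without it. Cd74 per H2-Ab1 was 3.09 and 2.60 in NC, 2.88 and 2.43 in LPS, 3.33 and 3.11 in C498, and 3.61 and 3.77 in C498+LPS. H2-DMa per H2-Ab1 was 0.282 and 0.24 in NC, 0.148 and 0.13 in LPS, 0.209 and 0.207 in C498, and 0.151 and 0.154 in C498+LPS, with both NC samples at the top. With 2 samples against 2, an exact two-sided permutation test cannot go below p = 0.333, the value found wherever groups did not overlap, so none of these differences can pass a threshold of 0.05 by that test. For H2-Aa per H2-Ab1 the difference between means was 0.19 in C498 vs NC and 0.34 in C498+LPS vs LPS. For H2-DMa per H2-Ab1 LPS vs NC gave -0.12 and C498+LPS vs C498 gave -0.05.

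**Figure D3:**
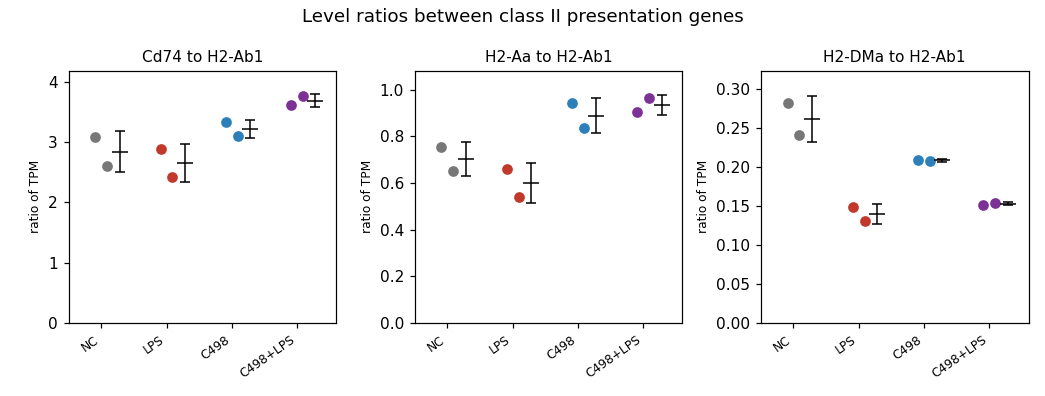
Ratio of TPM levels within each sample for 3 pairs of class II genes (panels, y axis from 0); points are samples, the dash and bar the mean and SD of 2 samples. H2-Aa per H2-Ab1 is at or below 0.754 in all samples without C498 and at or above 0.837 in all samples with it.

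Across the 8 samples, which fall into 4 groups, the genes did not all move together, and whether they form separate sets was not tested. Pearson's r of log2(TPM + 1) was 0.92 between H2-Aa and H2-Eb1, 0.91 between H2-Aa and Cd74 and 0.83 between H2-Eb1 and Cd74. The coefficient was 0.81 between H2-DMa and H2-DMb1, 0.71 between H2-DMa and Ciita and 0.66 between H2-DMb1 and Ciita. Between H2-Aa and H2-Ab1, the partner chains of I-A, it was -0.03. H2-Ab1 had -0.15 with H2-Eb1, 0.15 with Cd74 and 0.64 with H2-DMb1. The mean profile used next thus averages H2-Ab1 with genes that it did not follow. Among 8861 other genes with a mean of at least 5 TPM, those most like the mean standardised profile of H2-Aa, H2-Ab1, H2-Eb1 and Cd74 were Wasf1 (r = 0.88), Map1lc3a (0.88), Gm9800 (0.88), Prkcsh (0.88), Hmgb2 (0.86), Rps14 (0.85), Gm49739 (0.84), Upf3a (0.84), Mrpl9 (0.84) and Mcm5 (0.83), over the same 8 samples. No gene reached 0.9. These are descriptions over few samples that share their groups.

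Ciita measured 2.99 and 1.48 TPM in NC, 1.30 and 1.14 in LPS, 1.20 and 0.82 in C498, and 0.32 and 1.00 in C498+LPS. Both NC samples were above all 6 others, LPS overlapped C498, and C498 overlapped C498+LPS, while both LPS samples were above both C498+LPS samples. None of the changes passed: -0.50 ± 0.33 in LPS vs NC (adjusted p = 0.302), -0.65 ± 0.33 in C498 vs NC (adjusted p = 0.227), and -0.45 ± 0.33 in C498+LPS vs LPS (adjusted p = 0.419). Single samples moved these values: without the first or the second NC sample LPS vs NC gave -0.16 or -0.85 and C498 vs NC gave -0.31 or -0.996, and without the first or the second C498+LPS sample C498+LPS vs LPS gave -0.15 or -0.75. In C498+LPS vs NC it was -0.95 ± 0.33 (adjusted p = 0.0557). That change passed with quantile normalization (-0.99, adjusted p = 0.0329), with no variance trend (adjusted p = 0.0409) and without the second NC sample (-1.3, adjusted p = 0.0282), where Ciita was called, and it was -0.61 (adjusted p = 0.195) without the first NC sample. The ratio of mean TPM in C498+LPS vs NC was 0.295. The second NC sample was 0.495 times the first and the second C498+LPS sample 3.12 times the first, the widest replicate ratios of the 7 genes. The genes most like Ciita were Rpap2 (r = 0.95), Thap7 (0.95), Psmd5 (0.94), Thumpd3 (0.93) and Exosc1 (0.93), and 0.226% of the genes compared were above 0.9. Exons of Ciita share 329 bases with Dexi on the opposite strand, which measured 12.6 and 16.4 TPM in NC, 9.25 and 7.03 in LPS, 10.3 and 12.16 in C498, and 6.71 and 9.13 in C498+LPS. Dexi fell in LPS vs NC (log2 change -0.76, adjusted p = 0.0377) and in C498+LPS vs NC (-0.80, adjusted p = 0.024), and how far its reads entered the values of Ciita was not tested.

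Genes that act on Ciita changed in both directions. Of 12 such genes, 5 rose and 2 fell in LPS vs NC, where 29.6% of all tested genes passed, and 4 rose and 3 fell in C498 vs NC, where 15.5% did. In C498+LPS vs LPS 3 rose and 3 fell, beside 16.8% of all genes, and in C498+LPS vs C498 5 rose and 1 fell, beside 16.2%. With centring the counts were 6 and 1, 3 and 3, 3 and 3, and 5 and 0. The median log2 change of the list was 0.30, 0.31, -0.20 and 0.56 in that order, beside -0.17, 0.01, 0.01 and -0.18 over all genes. Ifng, the cytokine that induces Ciita in macrophages, measured 0.88 and 1.15 TPM in NC, 5.65 and 5.22 in LPS, 12.7 and 14.7 in C498, and 25.9 and 48.0 in C498+LPS. Its groups did not overlap, and Ifng rose 7.31-fold in TPM + 1 in C498 vs NC (adjusted p = 0.00114) and 5.64-fold in C498+LPS vs LPS (adjusted p = 0.00192), where the ratios of mean TPM were 13.5 and 6.8. By RT-PCR in peritoneal macrophages the authors report the other direction, less IFN-γ transcript under LPS with C498. Those cells had a lower dose of C498 and a higher dose of LPS.

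Ifngr1 and Ifngr2 encode the chains of its receptor. Ifngr1 measured 53.3 and 46.5 TPM in NC, 25.8 and 22.2 in LPS, 31.1 and 34.1 in C498, and 23.2 and 24.5 in C498+LPS. It fell in LPS vs NC (log2 change -1.03, adjusted p = 0.0015) and in C498 vs NC (-0.60, adjusted p = 0.0239), and did not pass in C498+LPS vs LPS (-0.00485, adjusted p = 0.991) or C498+LPS vs C498 (-0.44, adjusted p = 0.0619). Ifngr2 was 91.5 and 92.5 TPM in NC and 39.6 and 41.5 in C498+LPS, and it fell in all of the 4 pairwise comparisons of the design, by 0.52 to 0.65 on the log2 scale. With centring Ifngr2 no longer passed in LPS vs NC (adjusted p = 0.109) and C498+LPS vs C498 (adjusted p = 0.13). Irf1, a factor bound to the interferon-responsive promoter of Ciita, measured 166 and 157 TPM in NC, 527 and 446 in LPS, 389 and 359 in C498, and 612 and 553 in C498+LPS. Irf1 rose 2.99-fold in LPS vs NC and 2.31-fold in C498 vs NC (adjusted p = 0.000103 and 0.000834).

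Socs1, an inhibitor of that signal, rose 6.06-fold in LPS vs NC (adjusted p = 0.000134) and 2.06-fold in C498 vs NC (adjusted p = 0.0133). Jak2, the kinase on the receptor, rose 5.03-fold in LPS vs NC (adjusted p = 0.000497). Prdm1, a repressor of Ciita in plasma cells, rose 2.63-fold in LPS vs NC (adjusted p = 0.0125). Of the lineage factors, Spi1 (PU.1) fell in C498 vs NC (log2 change -0.77, adjusted p = 0.00398) and in C498+LPS vs LPS (-0.97, adjusted p = 0.00155), from 461 and 454 TPM in LPS to 247 and 221 in C498+LPS. Irf8, a partner of PU.1, rose 2.70-fold in C498+LPS vs LPS (adjusted p = 0.00122), from 118 and 93.0 TPM to 299 and 269.6. Irf4 rose 2.50-fold in TPM + 1 in the same comparison (adjusted p = 0.0158) at a low level, 0.82 and 0.78 against 2.66 and 4.52 TPM, a ratio of mean TPM of 4.49.

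The next list holds the factors known to bind X and Y boxes. Of Rfx5, Rfxap, Rfxank, Nfya, Nfyb, Nfyc and Creb1, 0 of 7 passed in LPS vs NC, C498 vs NC, C498+LPS vs LPS and C498+LPS vs C498 in limma, beside 29.6%, 15.5%, 16.8% and 16.2% of all genes, with an unadjusted p under 0.05 for 2, 1, 0 and 0 of them in that order. With centring Rfx5 (0.93, adjusted p = 0.0139) and Creb1 (0.82, adjusted p = 0.0278) passed in LPS vs NC and Creb1 in C498 vs NC (0.88, adjusted p = 0.0307), and the same 3 values passed with quantile normalization. Rfx5, the DNA-binding subunit of RFX, measured 2.88 and 1.73 TPM in NC, 5.17 and 3.92 in LPS, 1.83 and 2.19 in C498, and 3.80 and 2.77 in C498+LPS. Creb1, a factor of the X2 part of the X box, had a log2 change of 1.01 in C498 vs NC that did not pass (adjusted p = 0.0619) and rose in C498+LPS vs NC (0.90, adjusted p = 0.0452). Its NC samples were far apart, at 12.14 and 5.67 TPM, beside 15.43 and 12.19 in LPS, 17.97 and 17.63 in C498, and 16.21 and 16.71 in C498+LPS. Without the second NC sample Creb1 gave 0.52 (adjusted p = 0.102) in C498 vs NC and 0.41 (adjusted p = 0.0938) in C498+LPS vs NC, and without the first 1.49 (adjusted p = 0.00482) and 1.39 (adjusted p = 0.00228).

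The processing list holds proteases and a reductase that prepare peptides and degrade the invariant chain, and Cst3, an inhibitor of such proteases. Of its 9 genes, 0 rose and 4 fell in LPS vs NC (Ctsd, Ctsh, Lgmn and Ifi30), where 29.6% of all genes passed, and 0 rose and 5 fell in C498+LPS vs C498, where 16.2% did, each by less than 2-fold. With centring 0 of 9 passed in either comparison, with an adjusted p of 0.0574 for Lgmn and 0.0538 for Ifi30 in LPS vs NC, and with quantile normalization 3 and 6 fell. As deposited, the list had median log2 changes of -0.28 and -0.36 beside -0.17 and -0.18 over all genes. Lgmn, the asparaginyl endopeptidase, measured 997 and 997 TPM in NC and 668 and 656 in LPS, a fall of 1.51-fold (adjusted p = 0.00134). Ifi30, the thiol reductase of the lysosome, measured 606 and 626 TPM in NC, 395 and 404 in LPS, 490.1 and 488 in C498, and 399 and 366 in C498+LPS. Ifi30 fell in LPS vs NC (log2 change -0.62, adjusted p = 0.00147), in C498 vs NC (-0.33, adjusted p = 0.0307) and in C498+LPS vs C498 (-0.36, adjusted p = 0.024), of which the change in C498 vs NC also no longer passed with centring (adjusted p = 0.0639). Ctss, the protease that trims the invariant chain in macrophages and dendritic cells, was at 7827 and 7525 TPM in NC and 6367 and 6317 in LPS and did not pass in LPS vs NC. Ctsl rose 1.36-fold in C498+LPS vs LPS (adjusted p = 0.0155), and did not pass there with centring (adjusted p = 0.126).

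Of 4 genes that act on how long class II molecules stay at the surface, 1 rose and 0 fell in LPS vs NC and in C498 vs NC, and 2 rose and 1 fell in C498+LPS vs LPS, beside 29.6%, 15.5% and 16.8% of all genes that passed. With centring 1 rose and 0 fell in LPS vs NC, and 1 rose and 1 fell in each of C498 vs NC and C498+LPS vs LPS. Marchf1, a ubiquitin ligase that sends class II to lysosomes, measured 31.2 and 15.5 TPM in NC, 26.1 and 23.4 in LPS, 12.8 and 13.2 in C498, and 9.51 and 6.80 in C498+LPS. Both groups with C498 were below both groups without it. In C498 vs NC Marchf1 did not pass (log2 change -0.72, adjusted p = 0.152), but it did with centring (-0.84, adjusted p = 0.0411) and with quantile normalization (-0.86, adjusted p = 0.0424). Marchf1 fell 2.84-fold in C498+LPS vs LPS (adjusted p = 0.0162). Cd83, a surface protein that opposes Marchf1, measured 12.48 and 11.03 TPM in NC, 37.3 and 33.3 in LPS, 28.1 and 27.9 in C498, and 86.8 and 86.9 in C498+LPS. Cd83 rose in every pairwise comparison of the design, 2.28-fold in C498 vs NC (adjusted p = 0.00113) and 2.42-fold in C498+LPS vs LPS (adjusted p = 0.000996). Il10, which lowers class II at the surface of macrophages, rose 2.23-fold in TPM + 1 in C498+LPS vs LPS (adjusted p = 0.0315), from 0.66 and 1.16 to 2.66 and 3.89 TPM, a ratio of mean TPM of 3.6. With centring that change of Il10 did not pass (adjusted p = 0.0612). Marchf8 did not pass in any comparison.

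**Figure D4:**
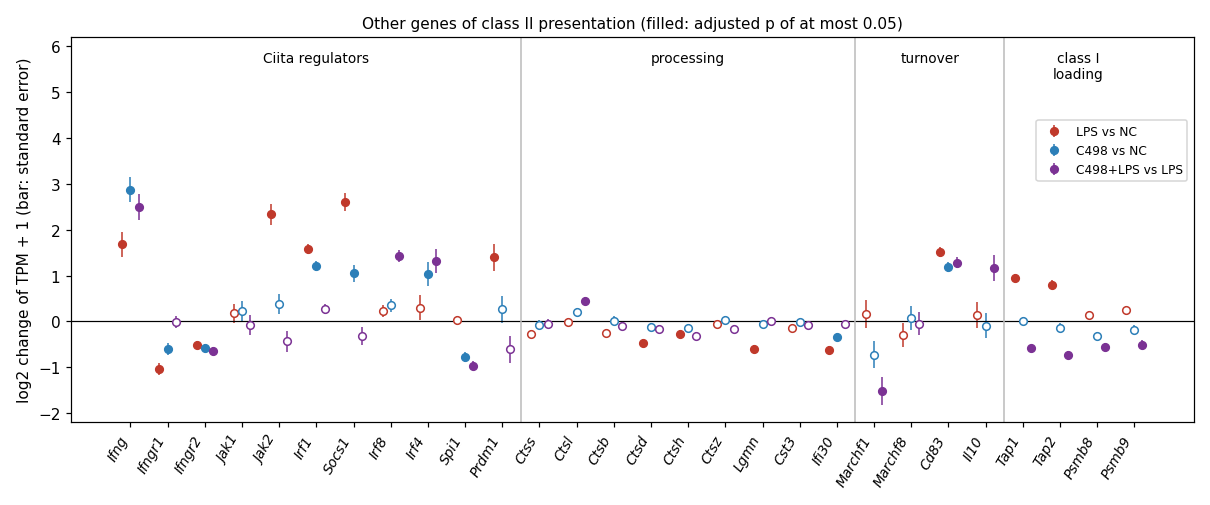
Log2 change of TPM + 1 (y axis) with its standard error for genes of 4 lists around class II presentation, in LPS vs NC, C498 vs NC and C498+LPS vs LPS; filled points have an adjusted p of at most 0.05. Ifng and Cd83 are above 0 and filled in all 3 comparisons, and the processing genes stay within 1 log2 unit of 0.

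The class I loading genes Tap1, Tap2, Psmb8 and Psmb9 lie between the class II genes on chromosome 17. In LPS vs NC, where 29.6% of all genes passed, Tap1 rose 1.94-fold (adjusted p = 0.000283) and Tap2 1.74-fold (adjusted p = 0.00117), while Psmb8 (log2 change 0.14, adjusted p = 0.301) and Psmb9 (0.24, adjusted p = 0.111) did not pass. All 4 fell in C498+LPS vs LPS, by 0.51 to 0.73 on the log2 scale, where 16.8% of all genes and 1 of the 7 class II presentation genes passed. With centring all 4 fell as well, beside 19.5% of all genes and 0 of the 7. Tap1 measured 167 and 155 TPM in NC, 316 and 309 in LPS, 159 and 166 in C498, and 214 and 202 in C498+LPS. Of the other class II chains, H2-Oa and H2-DMb2 were tested and did not pass in any comparison of the limma fit, with 0 unadjusted p under 0.05, while H2-Eb2 and H2-Ob were below the filter at means of 0.17 and 0.83 TPM.

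Markers of other cells moved with some of these values. The second C498+LPS sample exceeded the first 1.42-fold in H2-Eb1, 1.26-fold in H2-Aa, 1.23-fold in Cd74 and 3.12-fold in Ciita. It was 1.20 times the first in H2-DMa and 1.18 times in H2-Ab1, and lower in H2-DMb1, at 0.92 times. Between the same samples the summed level of 10 dendritic cell markers was 56.0 and 123 TPM, of which Ccr7 made up 46.8 and 112. In the other groups that sum was 23.6 to 26.6 TPM in NC, 23.0 to 23.1 in LPS and 41.2 to 44.3 in C498. Among the defining genes, Xcr1, Siglech, Itgae and Cd209a were between 0 and 0.55 TPM in all 8 samples, and Zbtb46 was 2.20 and 3.41 TPM in C498+LPS and 0.89 and 0.31 in NC. Batf3, a factor of one class of dendritic cells, went the other way, at 12.76 and 12.68 TPM in NC, 4.28 and 5.72 in LPS, 7.01 and 4.52 in C498, and 5.86 and 6.02 in C498+LPS, and it fell in LPS vs NC (log2 change -1.20, adjusted p = 0.00723) and C498 vs NC (-1.05, adjusted p = 0.0231). Clec9a was 0.84 and 0.26 TPM in NC and 0 in both C498+LPS samples. The 9 B cell markers summed to 5.20 and 15.8 TPM in C498+LPS and to 4.11 to 8.18 in the other groups, with Fcer2a and Cr2 at 0 to 0.03 in all samples. The second C498+LPS sample was also 2.63 times the first in the mast cell sum, 2.15 times in the T cell sum and 1.48 times in the fibroblast and mesothelial sum. The part of such cells in the class II values was not tested.

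Fibroblast and mesothelial markers separated the groups with C498. The 10 genes summed to 154 to 205 TPM in NC and LPS and to 632 to 932 in C498 and C498+LPS, and 7 of the 8 tested were called higher in C498 vs NC, as deposited and with centring, where 5.64% of all tested genes were called higher. Over the same groups Spi1 and the macrophage sum were lower. Most of that sum was Lyz2, at 12790 to 15989 TPM without C498 and 7831 to 11579 with it. Of the 9 macrophage markers 1 rose and 2 fell in C498 vs NC, where 15.5% of all tested genes passed. In C498+LPS vs LPS 2 rose and 4 fell, beside 16.8%. Cd14 rose in C498 vs NC (log2 change 1.47, adjusted p = 0.000121), while Cd68 did not pass (0.03, adjusted p = 0.867). The 8 markers of small peritoneal macrophages and recruited monocytes summed to 234 to 281 TPM in NC and LPS and to 51.4 to 83.1 in the groups with C498. Ly6c2 alone was 222 to 274 TPM of that sum without C498 and 38.8 to 68.3 with it, while Irf4 and Retnla of the same list rose in C498+LPS vs LPS (Retnla 1.72-fold, adjusted p = 0.0349, and 0.0526 with quantile normalization). The 9 of large peritoneal macrophages summed to 41.0 to 43.5 TPM in C498+LPS and to 62.9 to 79.2 in the other groups. Most of it was Cd5l (16.7 to 40.2 TPM) and Prg4 (5.51 to 14.1 TPM), while Gata6, the defining factor of large peritoneal macrophages, rose 2.33-fold in C498+LPS vs LPS (adjusted p = 0.0271). T cell markers summed to 3.68 to 8.70 TPM, eosinophil markers to 1.41 to 3.63 and mast cell markers to 8.81 to 23.2 over all samples. Neutrophil markers summed to 113 to 166 TPM in NC and LPS and to 70.9 to 98.2 in the groups with C498. Of the 3 tested, S100a8 (adjusted p = 0.0409) and Csf3r (adjusted p = 0.00738) fell in C498 vs NC, where 15.5% of all tested genes passed. Csf3r also fell in C498+LPS vs LPS (2.40-fold, adjusted p = 0.00191), where 16.8% of all tested genes passed. With centring S100a8 no longer passed (adjusted p = 0.0609). Ngp and Elane were at 0 in all samples, Mpo at 0 to 0.05 TPM, S100a9 at 0 to 0.86 TPM, and Ly6g at 0 in all but the second C498 sample (2.62 TPM). Whether a change in the mixture of cells had a part in the values of the 7 genes was not tested.

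**Figure D5:**
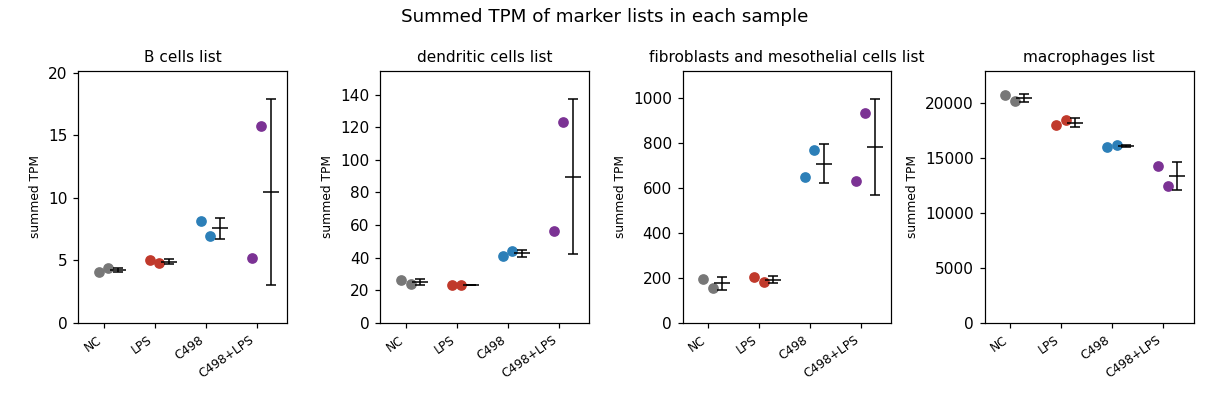
Summed TPM of 4 marker lists in each sample (panels, y axis from 0); points are samples, the dash and bar the mean and SD of 2 samples. The fibroblast and mesothelial sum is at most 205 without C498 and at least 632 with it, and the dendritic and B cell sums are highest in the second C498+LPS sample.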

How the data were processed

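RNA of 8 samples in 4 groups of 2 was sequenced on an Illumina platform. According to the methods and the submitters' processing notes, the authors used fastp to filter reads, HISAT2 for alignment, StringTie for transcript assembly and RSEM for quantification. Genome build, annotation and versions are not given in the sources used here. Deposited were TPM values of each gene in each sample, given by the authors to 2 decimals, with gene lengths and group means, which were not used. Their DESeq2 test needs counts, which were not analysed here, so TPM was tested.

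The 12189 genes whose mean TPM reached 1 were fitted on log2(TPM + 1) with limma 3.58.1 in R 4.3.3, with 1 mean per group over all samples, variances moderated with a trend, and p adjusted by Benjamini-Hochberg within each comparison. A called gene had an adjusted p of at most 0.05 and a fold change of at least 2, the authors' thresholds. TPM keeps no depth. A 2-decimal value near 1 TPM is coarse, and no interval for counting error can be given.

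All 7 genes are named, and genes of the lists of class II chains, promoter factors, Ciita regulators, processing, turnover and class I loading by membership. Some list genes are not reported here by name. Genes like them are the 10 (for Ciita, 5) with the highest Pearson's r among genes with a symbol and a mean of at least 5 TPM. The members and lists were chosen with earlier results of these data known. Marker lists of macrophages, large and small peritoneal macrophages, dendritic cells, B cells, T cells, neutrophils, eosinophils, mast cells and fibroblasts were summed. Promoters were searched in RefSeq sequence. The steps were tested on simulated data. Alternatives were a pseudocount of 0.1, no filter, a mean of at least 5 TPM, centring, quantile normalization, only the groups compared, no trend, the replicate number as a factor, no fold threshold, and each sample left out. The H2-DMb sum, C498+LPS vs NC and the values of the other and marker lists with centring, quantile normalization and each sample left out were added after seeing the data.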

Additional observations from a re-analysis of the deposited data

How the results depend on the processing

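Of 701 alternative values of the log2 change of single genes, 642 kept their direction and their side of the threshold, 23 no longer passed, 10 newly passed and 26 changed sign. The fall of H2-DMa in LPS vs NC and of both H2-M chains in C498+LPS vs NC kept direction and threshold in all alternatives. The values that no longer passed all belonged to the other falls, H2-DMb1 in C498+LPS vs LPS and both H2-M chains in C498+LPS vs C498. Most of the alternative values were of changes that had not passed to begin with. Without the fold threshold the genes counted were 1 in LPS vs NC, 1 in C498+LPS vs LPS, 2 in C498+LPS vs C498 and 2 in C498+LPS vs NC. In C498+LPS vs NC, 0 were called with centring and 0 with quantile normalization. With centring, values that had not passed changed sign for H2-Aa (0.11) and H2-Eb1 (0.0189) in LPS vs NC, H2-Ab1 in C498 vs NC (-0.0698), Cd74 in C498+LPS vs LPS (-0.025), H2-Eb1 (0.10) and Cd74 (0.10) in C498+LPS vs C498, and H2-DMa in the interaction (0.0349, and 0.0224 with quantile normalization). The fall of H2-DMb1 in C498+LPS vs C498 was also lost with no filter (adjusted p = 0.063), with quantile normalization (0.145) and with no variance trend (0.0681), and in C498+LPS vs LPS with quantile normalization (0.0531); the cause was not tested.

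With each sample left out in turn, values that changed sign ranged from -0.00932 to 0.15 for Cd74 and from -0.17 to 0.0419 for H2-Aa in LPS vs NC, from -0.0925 to 0.20 for H2-Ab1 in C498 vs NC, from -0.10 to 0.20 for Cd74 in C498+LPS vs LPS, and from -0.36 to 0.14 for H2-Eb1 and -0.27 to 0.035 for Cd74 when C498+LPS was set against C498. In the interaction they ranged from -0.14 to 0.12 for H2-DMa, -0.14 to 0.55 for Ciita and -0.21 to 0.29 for H2-Eb1, and in C498+LPS vs NC from -0.00925 to 0.32 for H2-Aa, -0.0105 to 0.49 for H2-Eb1 and -0.0285 to 0.27 for Cd74, where the count called ranged from 0 to 1. Cd74 per H2-Ab1 in LPS minus NC ranged from -0.43 to 0.06 and H2-Aa per H2-Ab1 in C498+LPS minus C498 from -0.00555 to 0.099. The lone sample of a group was assumed to vary like the other groups.

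For the genes of the pathway lists other than the 7, 40 of the 74 values that passed in the 5 pairwise comparisons passed with each sample left out in turn, and 19 of the 116 that did not pass did so without some sample. The highest adjusted p with a sample left out was 0.204 for Ctsh and 0.0891 for Ctsd in LPS vs NC, 0.0879 for Prdm1 in LPS vs NC, 0.156 for Ifngr1, 0.07 for Ifngr2, 0.0752 for Socs1 and 0.159 for Ifi30 in C498 vs NC, and 0.0609 for Ifngr2 and 0.135 for Ifi30 in C498+LPS vs C498. It was 0.0885 for Irf4, 0.161 for Il10, 0.122 for Marchf1, 0.113 for Ctsl, 0.0727 for Psmb8 and 0.108 for Psmb9 in C498+LPS vs LPS. Among the markers it was 0.0598 and 0.131 for Batf3 in LPS vs NC and C498 vs NC, 0.186 for S100a8 and 0.0662 for Csf3r in C498 vs NC, and 0.138 for Gata6 and 0.188 for Retnla in C498+LPS vs LPS.

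Same-numbered samples deviated together only weakly (r from 0.04 to 0.17 over 6 pairs of groups), so the numbers were not taken to pair the samples. With the replicate block, the genes that passed in C498+LPS vs LPS included H2-Ab1 (log2 change -0.43, adjusted p = 0.0206), and no other gene of the 7 newly passed or stopped passing. Depth is unknown, which limits Ciita most.

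Over all genes, the upregulated share of calls was 45.4% in LPS vs NC, 80.5% in C498 vs NC and 44.6% for LPS on top of C498. With centring it was 61.7%, 67.7% and 68.9%, and with quantile normalization 60.1%, 67.3% and 61.0%.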
